A study of Mus musculus with 10 samples.

Results

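The 10 genes described here are tied to positive selection and to the choice between the CD4 and CD8 lineages and were measured in thymus RNA of homozygous KO, heterozygous KO and wild-type mice for Usp7 (HAUSP). They were Cd69, Itm2a, Cd5, Cd6, Egr2, Nr4a1, Tox, Gata3, Zbtb7b and Runx3, taken by symbol as 10 of the 35375 features counted, and all 10 passed the filter on low counts that kept 19511 features for testing. Itm2a was picked for its fall in these animals, so its knockout values are given as a description with no test, and counts of called genes below run over the other 9. Those 9 and the lists below were also chosen with earlier results of these data known. Their counts beside the share over all features are therefore a description. RNA came from thymus taken on day 3 after birth from C57BL/6J mice with a homozygous KO of USP7 (n = 3), a heterozygous KO (n = 3) or wild-type USP7 (n = 4), each state being that of the hematopoietic system. The series' design text gives 2 of the wild types as having Cre and 2 as having none, but the labels do not say which, and neither they nor the study's methods used here name the promoter that drove Cre. The whole organ was sequenced, so a fall in a transcript from fewer cells of one type and a fall from less RNA per cell cannot be told apart.

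Positive selection takes place when a CD4+CD8+ double-positive thymocyte receives a T-cell receptor (TCR) signal from self peptide and MHC. The signal induces zinc-finger and nuclear-receptor factors such as Egr2 and Nr4a1 and surface proteins such as CD69 and CD5, and the selected cell then becomes a CD4 or a CD8 single-positive cell. The CD4 fate depends on Tox, Gata3 and ThPOK, the product of Zbtb7b, whereas Runx3 acts in the CD8 fate and silences Zbtb7b there.

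Usp7 itself was lower in homozygous KO than in wild type. Its CPM (counts scaled to library totals with TMM factors) stood at 303, 422 and 408 in homozygous KO libraries, at 472, 516 and 516 in heterozygous ones and at 676, 670, 594 and 589 in wild type, so the 3 groups did not overlap, and the homozygous mean stood at 59.7% of wild type (adjusted p = 0.000525). Of tested features, 32.7% had no overlap between homozygous KO and wild type. The share was 33.3% between homozygous and heterozygous KO and 8.69% between heterozygous KO and wild type. The heterozygous mean of Usp7, at 79.2% of wild type, was not called (adjusted p = 0.608), so a graded fall was not shown. The count covers the whole gene in whole thymus, and the part of the gene that the knockout removed is not given in the sources used here, so these levels do not show how complete the knockout was. The homozygous libraries held totals of 92.3 to 122 M counts, the heterozygous 90.5 to 97.4 M and the wild types 39.8 to 86.4 M. The T-cell identity of the tissue was visible in the CD3 chains: Cd3e averaged 411 CPM in homozygous KO, 434 in heterozygous KO and 435 in wild type, and edgeR and DESeq2 called 0 of the 4 chains (Cd3d, Cd3e, Cd3g and Cd247) in all 3 comparisons, where 1 chain had an unadjusted p under 0.05 in homozygous KO against wild type and 0 in the others. Of the 7 pan-T markers that include these chains, 2 were higher in homozygous KO against wild type, where 12.5% of all features were. They were Thy1 (log2 change 0.48, adjusted p = 0.000194) and Lck (0.23, adjusted p = 0.0115).

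RefSeq promoter windows (GRCm38.p6) were found for 7 of the 10 genes. The 250 bases before the start are shown for the 5 of them whose levels stood apart in homozygous KO, and capitals mark each E-box (CANNTG, both strands), the motif bound by the E proteins that USP7 was studied with here. The windows are chrX:107403361-107403610 (minus strand) for Itm2a, chr19:10738975-10739224 (minus) for Cd5, chr10:67535249-67535498 (plus) for Egr2, chr3:89393379-89393628 (minus) for Zbtb7b and chr4:135120395-135120644 (plus) for Runx3, each the most upstream start listed for its gene and each printed 5′ to 3′ on the gene's strand.
Itm2a: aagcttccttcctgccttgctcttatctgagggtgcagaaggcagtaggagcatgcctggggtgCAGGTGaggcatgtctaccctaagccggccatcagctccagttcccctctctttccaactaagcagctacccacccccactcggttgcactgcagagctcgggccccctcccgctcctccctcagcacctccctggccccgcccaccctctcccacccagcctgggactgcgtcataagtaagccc
Cd5: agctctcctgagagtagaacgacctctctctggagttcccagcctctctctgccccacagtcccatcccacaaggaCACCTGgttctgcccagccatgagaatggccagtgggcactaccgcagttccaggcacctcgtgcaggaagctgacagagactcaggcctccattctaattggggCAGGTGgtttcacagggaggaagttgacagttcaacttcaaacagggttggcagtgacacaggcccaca
Egr2: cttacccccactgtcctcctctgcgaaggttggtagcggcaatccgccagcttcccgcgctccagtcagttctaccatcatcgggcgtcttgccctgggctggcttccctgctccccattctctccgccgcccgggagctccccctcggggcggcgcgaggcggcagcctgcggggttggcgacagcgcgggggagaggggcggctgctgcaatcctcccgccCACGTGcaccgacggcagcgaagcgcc
Zbtb7b: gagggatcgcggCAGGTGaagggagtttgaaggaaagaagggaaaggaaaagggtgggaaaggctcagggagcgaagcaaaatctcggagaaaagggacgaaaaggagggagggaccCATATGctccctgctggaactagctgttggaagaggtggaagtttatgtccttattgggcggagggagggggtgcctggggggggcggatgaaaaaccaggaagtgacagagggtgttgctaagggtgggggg
Runx3: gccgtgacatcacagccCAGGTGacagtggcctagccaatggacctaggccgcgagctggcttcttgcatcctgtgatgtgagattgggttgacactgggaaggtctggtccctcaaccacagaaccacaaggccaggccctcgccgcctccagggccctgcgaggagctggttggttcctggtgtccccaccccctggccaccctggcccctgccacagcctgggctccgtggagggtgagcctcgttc
The 7 genes had 13 windows in the table, since a gene can have several starts and then has several chances of a match. Each of the 5 windows shown held at least 1 E-box, as did 9 of the 13 and 66.2% of the 32851 windows of all genes. The form CAGGTG (or its complement CACCTG) was present in 4 of the 13, 1 each for Itm2a, Cd5, Zbtb7b and Runx3, against 17.2% of all windows, and it sat in front of a gene that rose as well as in front of genes that fell. Cd5 had this form at 174 and 69 bases before its start. A GATA match (AGATAA) was found only in the Itm2a window among the members (9.99% of all windows), the RUNX motif TGTGGT in Zbtb7b and Runx3 (14.0%), and the EGR motif GCGNGGG in Egr2, Nr4a1 and Runx3 (20.3%). The NR4A motif AAGGTCA (4.08% of all windows) and the AP-1 motif TGANTCA (6.75%) had no match in a member's window. Windows were not used here for Cd69, Cd6 and Tox.

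Between homozygous KO and wild type, edgeR called 6 of the 9 genes at a Benjamini-Hochberg adjusted p under 0.05 over all features, where 25.8% of all tested features were called. Lower were Cd69, Cd5, Egr2, Tox and Zbtb7b, 5 of 9 against a background of 13.2%, and higher was Runx3, 1 of 9 against 12.5%. Cd6, Gata3 and Nr4a1 were not called. The libraries of the 2 groups did not overlap for the same 6 genes, as was so for 32.7% of tested features. The middle one of the 9 log2 fold changes was that of Nr4a1, -0.91, and the median over all tested features was -0.01.

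**Figure D1:**
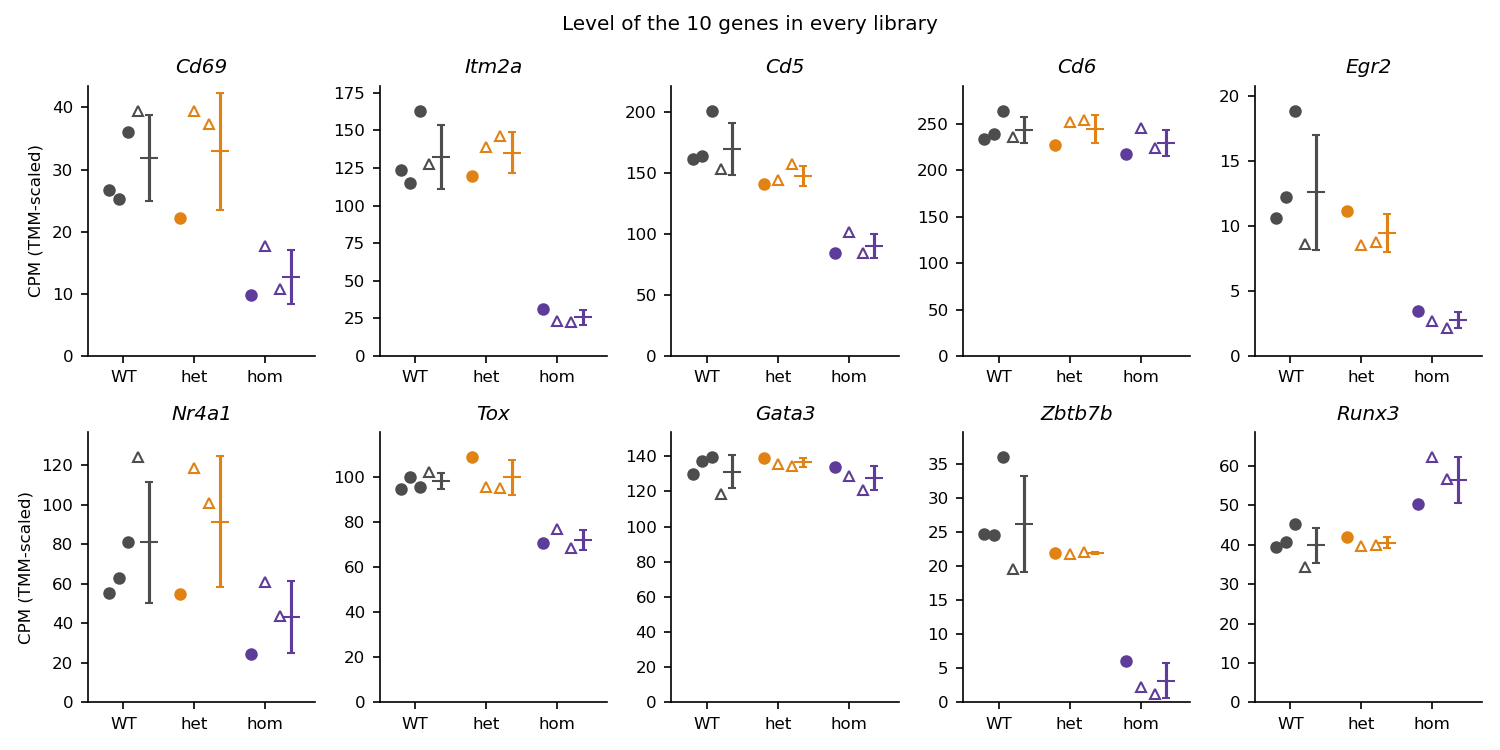
CPM (TMM-scaled) of each of the 10 genes in every library of wild type (WT, n = 4), heterozygous KO (het, n = 3) and homozygous KO (hom, n = 3), with the mean and SD at the right of each group. Filled circles are animals numbered up to 51 and open triangles animals from 56. Zbtb7b, Itm2a and Egr2 stand far below both other groups in homozygous KO, Runx3 stands above them, and the Cd6 libraries of the 3 groups overlap.

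Cd69, a lectin-type receptor that appears on thymocytes soon after the selecting signal and holds back the egress receptor S1PR1, was at 9.74, 17.6 and 10.7 CPM in homozygous KO. It was at 22.2, 39.3 and 37.3 CPM in heterozygous KO and at 26.7, 25.2, 36 and 39.5 CPM in wild type. All 3 homozygous libraries lay below every other library. The fitted change was -1.33 (SE 0.26, adjusted p = 0.00347) against wild type on the log2 scale, which left the homozygous mean at 39.9% of wild type.

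Itm2a, a transmembrane protein that is switched on during positive selection, had the highest level per exonic length of the 10 genes in wild type. Homozygous KO libraries held 31.2, 23.3 and 22.6 CPM of it, heterozygous ones 120, 139 and 146 CPM and wild types 124, 115, 163 and 127 CPM. The homozygous mean was 19.4% of wild type, a log2 difference of -2.36 (SE 0.15) that describes the choice of the gene. Itm2a lies on chromosome X, and the numbers of libraries with Xist above 100 CPM, the transcript of the inactive X, were 1 of 3 in homozygous KO, 0 of 3 in heterozygous KO and 3 of 4 in wild type. With Xist as a covariate the difference was -2.39.

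Cd5 and Cd6 are related scavenger-receptor proteins of T cells, and in the GRCm38 annotation they are neighbours on chromosome 19, on the same strand, 50.3 kb apart with no protein-coding gene between them. CD5 damps TCR signalling and its surface level follows signal strength, whereas CD6 binds the adhesion molecule ALCAM. Cd5 was at 84.0, 101 and 84.4 CPM in homozygous KO, 141, 144 and 157 CPM in heterozygous KO and 161, 164, 201 and 153 CPM in wild type. The homozygous libraries were all below the rest, and the change was -0.92 (SE 0.10, adjusted p = 7.99e-05), or 53.0% of the wild-type mean. Cd6 was at 218, 245 and 224 CPM in homozygous KO, 227, 252 and 254 CPM in heterozygous KO and 234, 239, 264 and 236 CPM in wild type. These ranges overlapped, and the change of -0.09 had a 95% confidence interval from -0.23 to 0.06 (adjusted p = 0.37). The neighbouring genes thus had intervals that did not meet, that of Cd5 running from -1.14 to -0.70, although the difference between the 2 genes was not itself tested.

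Egr2, a zinc-finger factor induced by TCR signalling, had the lowest level per exonic length of the 10 genes in wild type. It was at 3.43, 2.71 and 2.14 CPM in homozygous KO, 11.2, 8.52 and 8.76 CPM in heterozygous KO and 10.7, 12.2, 18.9 and 8.60 CPM in wild type. Homozygous libraries were below all others, with a change of -2.19 (SE 0.27, adjusted p = 0.000179) and a mean at 21.9% of wild type. Even the scarcest library rested on 193 reads of Egr2, so counting error was small beside the spread between animals.

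Nr4a1 (Nur77), an orphan nuclear receptor and immediate-early product of TCR signals, varied widely inside every group. The 3 homozygous libraries had 24.4, 60.8 and 44 CPM, the heterozygous 54.9, 119 and 101 CPM and the wild types 55.5, 63, 81.1 and 124 CPM. The second homozygous library lay among the lower wild types, and the change of -0.91 (SE 0.36, adjusted p = 0.0853) was not called. The level also went with the animal number in the titles. Among animals numbered up to 51 the log2 difference between the 1 homozygous library and the mean of the 3 wild types was -1.43, and among those numbered from 56 it was -1.26 for 2 against 1. With these blocks as a term the change was -1.35 (SE 0.15, adjusted p = 9.74e-05). It was also called without homozygous library 2, at -1.24 (adjusted p = 0.0466), and when the replicate numbers formed blocks, at -0.72 (adjusted p = 0.0227). In 18 of 22 alternatives it was not called. With only the wild types whose titles hold 2 wt words, the change of Nr4a1 was -0.46. The titles do not say what the animal number stands for.

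**Figure D2:**
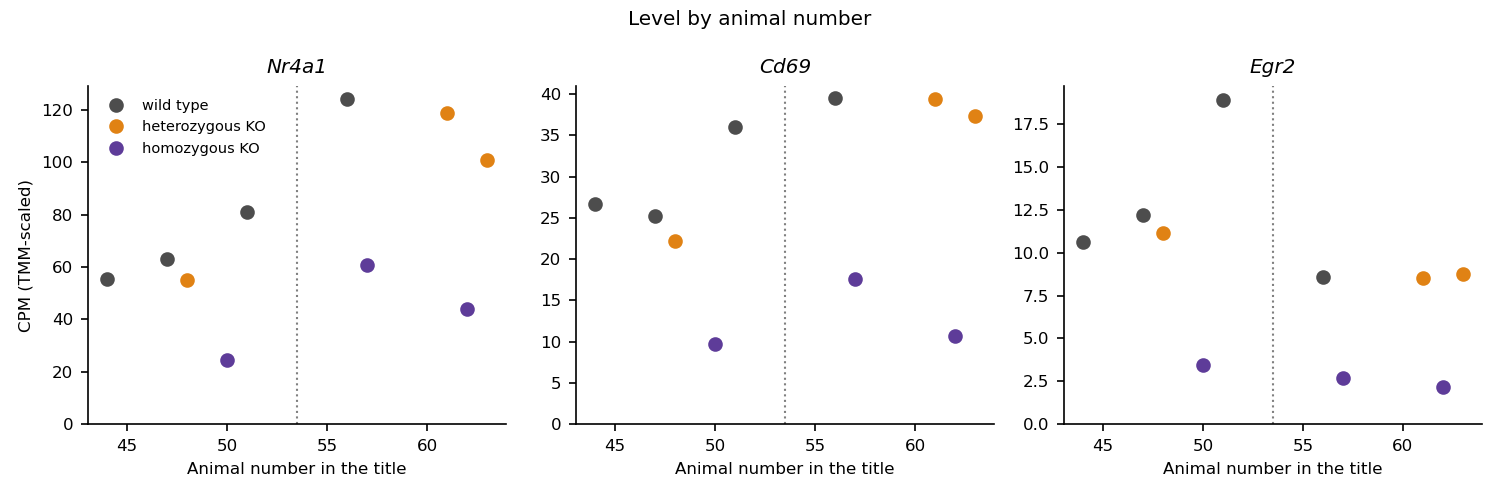
CPM (TMM-scaled) of Nr4a1, Cd69 and Egr2 against the animal number in the sample title, 1 point per library, coloured by group, with a dotted line between animals up to 51 and from 56. Nr4a1 and Cd69 sit higher in the later animals of each group, and on each side of the line the homozygous libraries are the lowest for all 3 genes.

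For the genes that were called, the within-block differences kept their sign on both sides of that line. In the earlier and later animals they were -1.57 and -1.52 for Cd69, -1.05 and -0.73 for Cd5, and -1.97 and -1.83 for Egr2. They were -0.45 and -0.50 for Tox, -2.19 and -3.55 for Zbtb7b, and 0.28 and 0.79 for Runx3, each on the log2 scale. Each side holds only 1 or 2 homozygous libraries, so these are values with no test.

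Tox, an HMG-box factor required for the CD4 lineage, had tight replicates. It was at 70.8, 76.8 and 68.2 CPM in homozygous KO, 109, 95.6 and 94.8 CPM in heterozygous KO and 94.6, 100.1, 95.6 and 102 CPM in wild type. All 3 homozygous libraries lay below every other library, whereas heterozygous and wild-type libraries overlapped. Relative to wild type the homozygous level was 73.3%, and the fitted change was -0.45 (SE 0.06, adjusted p = 0.000552). An antisense gene, Gm11802, overlaps Tox in GRCm38, as Gm15417 does Zbtb7b and Gm16224 does Runx3. The kit marked strand, but whether the counting used it is not given in the sources used here.

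Gata3, a zinc-finger factor needed for CD4 cells and upstream of Zbtb7b, had ranges that overlapped between homozygous KO and wild type. The 3 homozygous libraries had 134, 129 and 121 CPM, the heterozygous 139, 136 and 135 CPM and the wild types 129.8, 138, 139.6 and 118 CPM. The change against wild type was -0.04 with an interval from -0.18 to 0.10 (adjusted p = 0.689), and its sign turned in 2 of 22 alternatives. Gata3 overlaps 1 annotated gene on its strand and 2 on the other, which makes its count less certain.

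Zbtb7b, whose product ThPOK commits cells to the CD4 lineage, was the gene with the lowest remaining share. It was at 6.09, 2.31 and 1.16 CPM in homozygous KO, against 21.9, 21.8 and 22.1 CPM in heterozygous KO and 24.7, 24.5, 36 and 19.5 CPM in wild type. The homozygous mean was 12.2% of wild type and the change was -3.03 (SE 0.45, adjusted p = 0.000637). Homozygous library 1 had the highest Zbtb7b of its group, although it had the lowest Usp7. Without it the change was -3.91 (adjusted p = 1.25e-05), and without library 3, the lowest, it was -2.63 (adjusted p = 0.000884).

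Runx3, the Runt-domain factor of CD8 cells, moved the other way. It was at 50.4, 62.2 and 56.6 CPM in homozygous KO, 42.1, 39.5 and 39.9 CPM in heterozygous KO and 39.4, 40.6, 45.1 and 34.4 CPM in wild type. All homozygous libraries were above the rest, and the change was 0.50 (SE 0.09, adjusted p = 0.00284), or 141% of wild type. Per exonic length, the ratio of Zbtb7b to Runx3 was 0.108, 0.0332 and 0.0184 in the homozygous libraries, 0.466, 0.492 and 0.495 in the heterozygous and 0.560, 0.540, 0.714 and 0.508 in wild type. Every homozygous library lay below all other libraries in this ratio, which follows from the separation of both genes and adds nothing to it. The heterozygous ratios also lay below every wild-type ratio, the nearest being 0.495 and 0.508, a difference that was not tested. Each of the 2 genes alone overlapped between these groups, where 8.69% of tested features did not overlap.

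**Figure D3:**
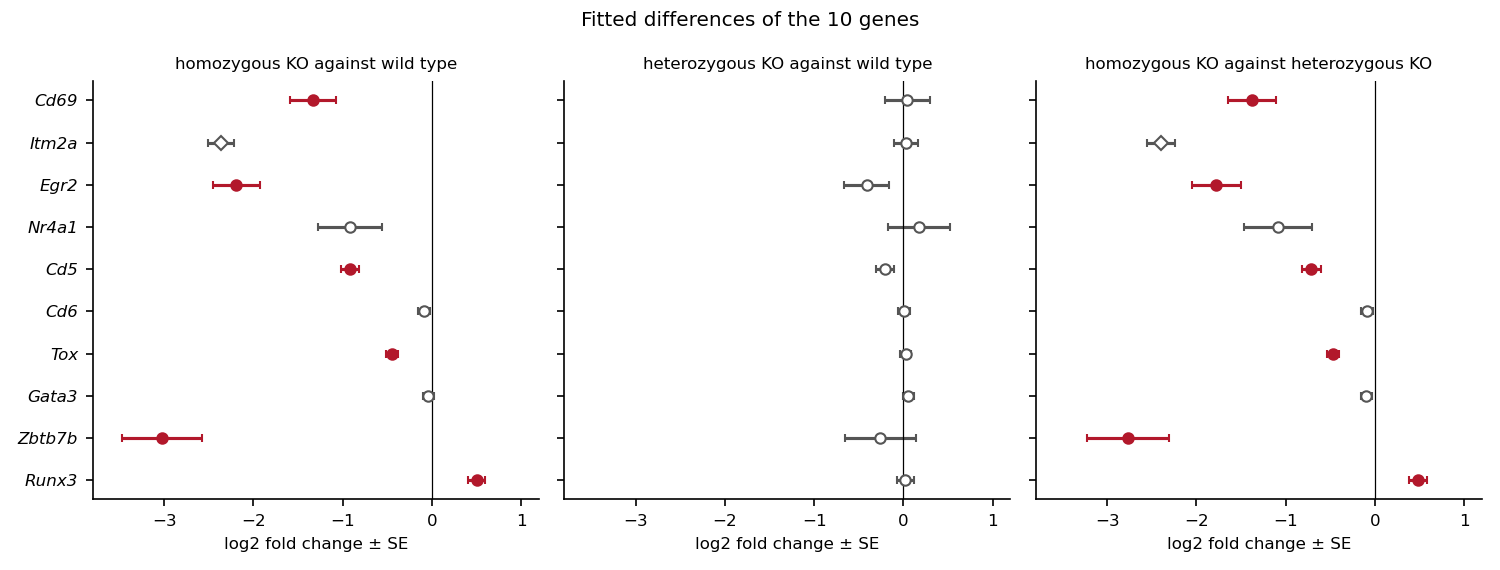
Fitted log2 fold change with its standard error for the 10 genes in the 3 comparisons. Filled red circles have an edgeR adjusted p under 0.05, open circles do not, and the open diamonds are Itm2a, which was not tested there because it was chosen for this fall. The middle panel, heterozygous KO against wild type, has no filled point.

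In heterozygous KO against wild type, edgeR called 0 of the 9 genes, and 0 had an unadjusted p under 0.05. DESeq2 also called 0. The libraries of the 2 groups overlapped for all 9, against 8.69% of tested features without overlap. The background was 0.0154% of tested features called, and 7.28% at an unadjusted p under 0.05. The lowest p was that of Cd5, whose change was -0.20 (95% interval -0.42 to 0.01, adjusted p = 0.704) with means of 147 CPM (SD 8.41) and 169.8 CPM (SD 21.3). Egr2 was at 75.3% and Zbtb7b at 83.7% of the wild-type mean, with changes of -0.41 (interval -0.96 to 0.14) and -0.26 (interval -1.13 to 0.61). The intervals reach well below 0, and an absence of change was not shown. The intervals were narrower for Tox (-0.12 to 0.16), Gata3 (-0.08 to 0.19), Cd6 (-0.14 to 0.15) and Runx3 (-0.19 to 0.23). Cd69 differed by 0.05 (interval -0.50 to 0.59), Nr4a1 by 0.17 (interval -0.59 to 0.94) and Itm2a by 0.03 (interval -0.27 to 0.33).

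Homozygous KO against heterozygous KO gave 6 called genes of 9, where 17.1% of tested features were called. This comparison shares its homozygous libraries with the one above and is not independent of it. Lower were Cd69 (-1.38, adjusted p = 0.00532), Cd5 (-0.71, adjusted p = 0.000856), Egr2 (-1.78, adjusted p = 0.00118), Tox (-0.47, adjusted p = 0.00081) and Zbtb7b (-2.77, adjusted p = 0.00176), 5 of 9 against a background of 9.5%. Runx3 was higher by 0.48 (adjusted p = 0.00787), 1 of 9 against 7.63%. Nr4a1 differed by -1.09 (adjusted p = 0.0746), Cd6 by -0.09 (adjusted p = 0.44) and Gata3 by -0.09 (adjusted p = 0.403). Gata3 was nevertheless below every heterozygous library in all 3 homozygous ones, a pattern of no overlap that 33.3% of tested features had in this comparison. Itm2a was at 19.0% of the heterozygous mean.

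Levels of different genes were compared as CPM per kb of exon, with lengths from GRCm38. In wild type the order was Itm2a (75.9), Cd5 (34.5), Gata3 (33.0), Cd6 (30.5), Nr4a1 (23.1), Tox (12.9), Runx3 (7.97), Cd69 (4.89), Zbtb7b (4.68) and Egr2 (3.71). The libraries of neighbours in this order overlapped from Cd5 down to Nr4a1 and again from Cd69 down to Egr2, and did not overlap at the other steps. In homozygous KO, Gata3 (32.1) and Cd6 (28.8) led, Itm2a (14.7) came after Cd5, and Egr2 (0.812) and Zbtb7b (0.570) closed the order. Heterozygous KO began with Itm2a (77.4), Gata3 (34.3), Cd6 (30.6) and Cd5 (29.9) and ended with Zbtb7b (3.92) and Egr2 (2.79).

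**Figure D4:**
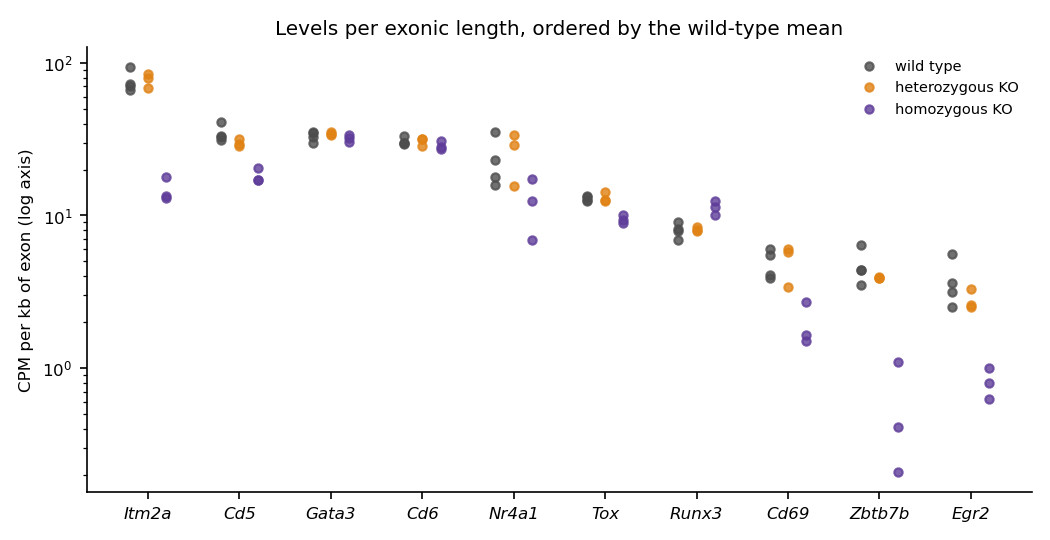
CPM per kb of exon on a log axis for each library, grouped by gene and coloured by genotype, with genes in the order of their wild-type mean. Itm2a leads in wild type at a mean of 75.9 and falls among the middle genes in homozygous KO at 14.7, and Zbtb7b ends lowest there at 0.570.

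Other genes of the same processes were read from lists, which were written with earlier results of these data known. Of 13 TCR-induced genes, 6 were lower in homozygous KO against wild type, where 13.2% of all features were, and 0 were higher. The list's median change was -0.43. The early-response factors Egr1 (-1.41, adjusted p = 4.64e-05), Egr3 (-2.07, adjusted p = 0.00552) and Nr4a3 (-1.89, adjusted p = 0.000544) were among the 6 lower genes. The others were Irf4 (-1.38, adjusted p = 0.000326), the costimulatory receptor Cd28 (-0.87, adjusted p = 1.25e-05) and Myc (-0.64, adjusted p = 0.015). The other 7 were not called, among them Id3 at 0.26 (adjusted p = 0.0871) and the phosphatase gene Dusp2 at 0.08 (adjusted p = 0.743).  Nr4a3, a relative of Nr4a1, stood at 4.43, 8.68 and 5.93 CPM in homozygous KO against 18.5 to 33.0 CPM in wild type, with no overlap.

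Of 8 transducers of the selecting signal, 2 were higher and 0 lower, where 25.8% of all features were called. The split moved with the fit, to 1 higher and 2 lower with library totals alone, 1 and 3 with scaling to summed pan-T markers, and 2 and 2 with the animal numbers as blocks. Lck, the kinase that starts the cascade, changed by 0.23 (adjusted p = 0.0115) and the adaptor Lat by 0.46 (adjusted p = 0.00197), while Zap70 was at 0.10 (adjusted p = 0.323) and Themis at -0.13 (adjusted p = 0.198). The median was 0.04.

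Of 9 genes of mature single-positive cells, 7 were lower, where 13.2% of all features were, and 0 were higher, with a median of -1.80. Ccr7, the receptor that guides selected cells to the medulla, was at 13, 1.35 and 1.14 CPM in homozygous KO and at 33.7 to 56.7 CPM in wild type (-2.96, adjusted p = 0.0109). The egress receptor S1pr1 (-2.12, adjusted p = 0.000892) and Klf2, the factor that induces it (-1.58, adjusted p = 0.000285), were lower as well, as were Il7r (-1.97, adjusted p = 0.000154), Itgb7, Ms4a4b and Ccr4. Foxo1 at -0.11 (adjusted p = 0.528) and Ccr9 at -0.20 (adjusted p = 0.0917) were not called. Homozygous library 1 held the highest Ccr7 of its group, as it did for Zbtb7b and Itm2a.

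Lineage lists beyond the members held few called genes, where 25.8% of all features were called. Of 10 CD4 lineage genes, 2 were lower in homozygous KO against wild type, the helper ligand Cd40lg (-2.87, adjusted p = 0.00511) and the chromatin organiser Satb1 (-0.21, adjusted p = 0.0166), and 0 were higher. Of 12 CD8 lineage genes, Cd8a was higher (0.26, adjusted p = 0.0148) and Eomes (-3.11, adjusted p = 0.000597) and Nkg7 (-0.65, adjusted p = 0.0442) were lower, both of which are also expressed by innate lymphocytes. With library totals alone and with pan-T scaling 0 of the 12 were higher. Cd4 was at 0.16 (adjusted p = 0.163) and Cd8b1 at 0.02 (adjusted p = 0.879). The medians of both lists, 0.01 and 0.07, were near that of all tested features.

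Partners and relatives gave a mixed picture, and 25.8% of all features were called in homozygous KO against wild type. Of 6 partners of the members, 1 rose and 2 fell in homozygous KO against wild type: Zfpm1 (FOG-1, a cofactor of GATA factors) rose by 0.81 (adjusted p = 8.47e-06), and Nab2, the corepressor of EGR proteins and itself induced by them, fell by 1.88 (adjusted p = 9e-05), as did S1pr1. The CD6 ligand gene Alcam was at -0.30 (adjusted p = 0.414) and Cbfb, the partner subunit of RUNX proteins, at 0.15 (adjusted p = 0.152). Of 14 family relatives measured, Tox3 rose by 1.84 (adjusted p = 0.000238) from 4.01 to 14.4 CPM, and Egr1, Egr3 and Nr4a3 fell. Runx1 at 0.07 (adjusted p = 0.478), Zbtb7a at 0.01 (adjusted p = 0.94) and Itm2b at 0.15 (adjusted p = 0.0525) were not called. In heterozygous KO, edgeR and DESeq2 each called 0 of the 65 distinct genes tested in these 7 lists, and 5 had an unadjusted p under 0.05.

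**Figure D5:**
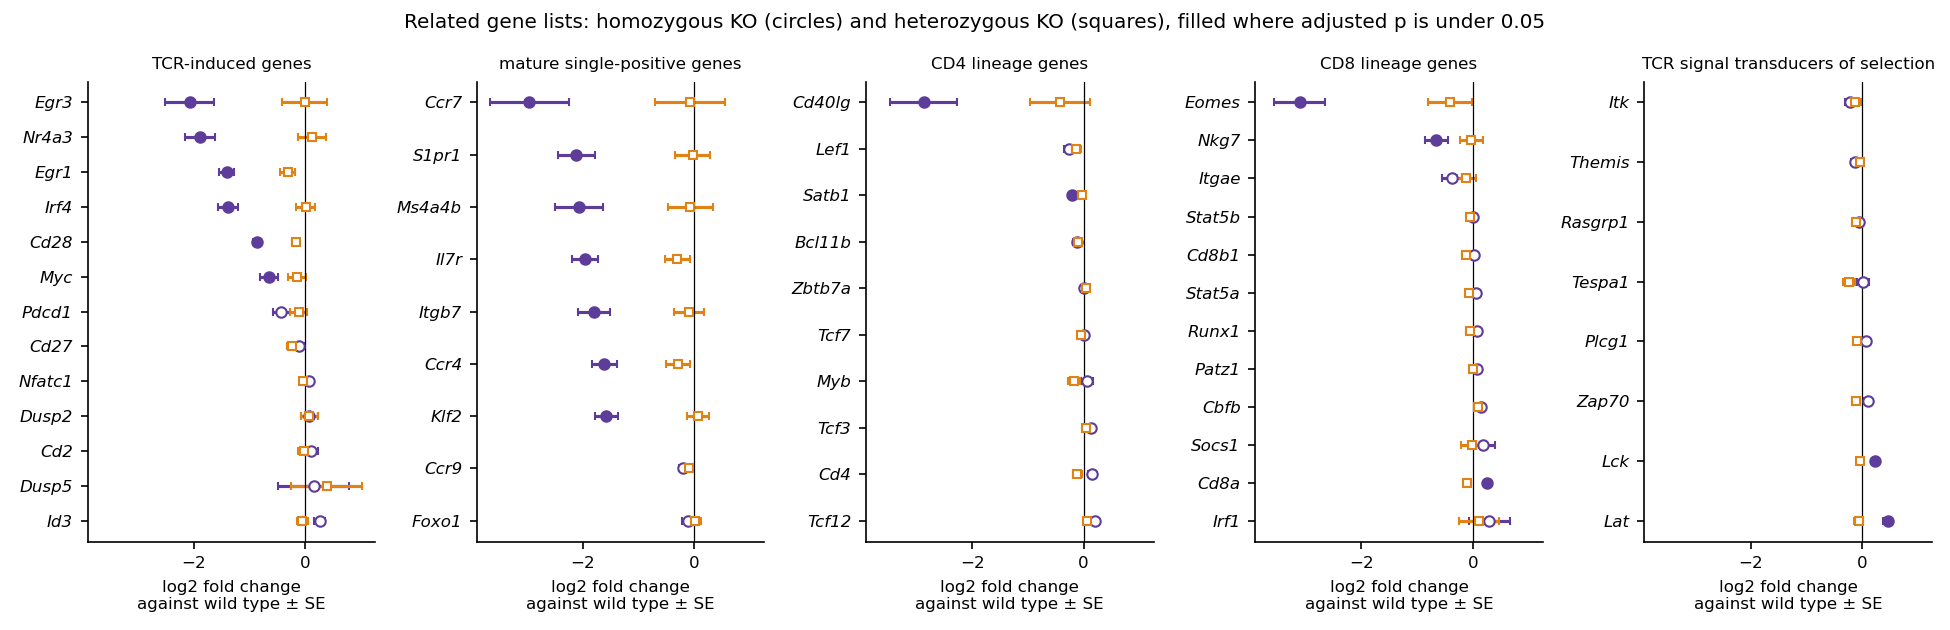
Log2 fold change against wild type with its standard error for the measured genes of 5 related lists, in homozygous KO (circles) and heterozygous KO (squares), filled where the adjusted p is under 0.05. The filled circles to the left are 6 of 13 TCR-induced, 7 of 9 mature single-positive, 2 of 10 CD4 lineage and 2 of 12 CD8 lineage genes. Those to the right are 1 of 12 CD8 lineage genes and 2 of 8 transducers, and no square is filled.

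Markers of other cells moved between the same groups. For these and all marker lists below, 13.2% of all features were lower and 12.5% higher in homozygous KO against wild type. All 6 B-cell markers were lower in homozygous KO against wild type and their summed CPM was 6.37 to 8.92 against 34.2 to 55.8, with Ms4a1 and Igkc averaging 0.00615 and 0.00868 CPM. All 5 dendritic-cell markers were lower, with sums of 4.96 to 5.96 against 17.2 to 21.9 CPM and Siglech at a mean of 0.00948 CPM. Those cells also express Cd69, Egr2 and Nr4a1. For NK and innate lymphoid markers 2 of 6 were lower (Ncr1 and Rora), with sums of 3.81 to 6.97 against 13.3 to 14.5 CPM. Their part in the falls of the members was not tested.

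Among myeloid markers 2 of 6 were higher (S100a8 and S100a9) and 2 lower (Csf1r and Adgre1), with sums of 55.9 to 211 against 57.1 to 67.9 CPM. Epithelial markers were 2 of 6 higher (Krt5 and Krt14), fibroblast markers 3 higher and 1 lower of 6, erythroid markers 1 of 5 higher, and no endothelial marker passed (lowest adjusted p = 0.0957, for Cdh5). Their summed CPM in homozygous KO and wild type was 43.1 to 118 against 40.1 to 59.6 for epithelium, 18.8 to 53.0 against 26.3 to 37.0 for fibroblasts, 95.5 to 888 against 135 to 686 for erythroid cells, and 151 to 158 against 144 to 157 for endothelium. Their part was likewise not tested.

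Within the thymocytes, pan-T markers were 2 of 7 higher (Thy1 and Lck) with sums of 4236 to 4529 against 3659 to 3891 CPM. Double-positive markers were 2 higher and 3 lower of 9, with sums of 8012 to 8340 against 9712 to 11058 CPM, and Rag1 was the main part of that (3491 against 6300 CPM on average). Double-negative markers were 1 higher (Notch1) and 2 lower (Kit and Cd44) of 6, with sums of 1863 to 3145 against 1258 to 1536 CPM. The higher sum came from Notch1 (2286 against 1098 CPM on average). The part of these shifts in the members' values was not tested.

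Scaling to the summed pan-T markers lowered every homozygous change by an amount close to the shift of the median feature, -0.24. Under it 9 of 9 genes were called against wild type, 1 higher and 8 lower, with Cd6 at -0.31 (adjusted p = 0.000873), Gata3 at -0.27 (adjusted p = 0.00508) and Nr4a1 at -1.15 (adjusted p = 0.0278). Runx3 was at 0.275 under this scaling. Relative to that median Cd6, Gata3 and Nr4a1 were -0.07, -0.02 and -0.91, and Runx3 was 0.52. These lie close to the values with TMM by construction, so they do not decide between the 2 scalings. Scaling to the 4 CD3 chains, chosen after Thy1 and Lck were seen to be higher, gave 6 of 9 called, with Runx3 at 0.51 and Zbtb7b at -2.99.

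For each member the 3 tested genes with the nearest profile were sought among 9815 candidates, as the root mean square difference of log2 CPM relative to the wild-type mean over all 10 libraries. Zbtb7b was nearest to Itgb3 (0.13), Ccr8 (0.24) and Vipr1 (0.27), and Itgb3 was at 5.83, 1.96 and 1.31 CPM in the homozygous libraries. Itm2a was nearest to Tes (0.13), Lad1 (0.14) and Crybg1 (0.15), and Egr2 to Atp8b4 (0.15), Mapk11 (0.17) and Nab2 (0.21). Nr4a1 was nearest to Fosl2 (0.14), then Relb (0.25) and Plekhg5 (0.31). Cd69 had Lgmn (0.18), Sema4g (0.21) and Mpeg1 (0.22), of which Lgmn and Mpeg1 are best known from macrophages. Nearest to Cd5 were Cytip (0.08), Taf1c (0.09) and Pbxip1 (0.09), to Tox were Etv6 (0.07), Ift140 (0.08) and Erap1 (0.08), and to Runx3 were Laptm5 (0.07), Rab27a (0.08) and Armc7 (0.09). Level profiles such as those of Cd6 and Gata3 match many genes and are not named.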

How the data were processed

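RNA was measured by stranded, ribosome-depleted sequencing of whole thymus from 10 mice. The authors deposited 1 table of raw counts per gene, not normalized. The submitters' processing notes name CASAVA, STAR 2.4.1d, HTSeq 0.6.1p1 and the NCBIM37 (mm9) build, whereas the study's methods describe a BWA-based mapping. The annotation release is not given in the sources used here. Gene symbols, chromosomes and exonic lengths came from GENCODE on GRCm38, another build, so no gene coordinates are given for the counts, and the promoter windows carry the RefSeq coordinates of GRCm38.p6. Features without an Ensembl identifier held 1.74% to 2.29% of counts.

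Groups came from the sample titles. In the columns of wild-type libraries 3 and 4 the name also holds the word het, and the title was followed. These are the 2 wild types with 1 wt word in the title, at 86.4 and 81 M counts against 39.8 and 41 M for the other 2. What the word het stands for there is not given, and the labels do not tie it to Cre. Counts were tested with edgeR 4.0.16 in R 4.3.3 (TMM, filterByExpr, glmQLFit and glmQLFTest, 1 fit over 10 libraries, Benjamini-Hochberg adjusted p under 0.05), and the script was tested on simulated data. The standard error is the log2 fold change divided by the square root of F. The 12 within-group library pairs differed by more than sampling noise. Alternatives were RLE, total, pan-T and CD3-chain scaling, no filter, DESeq2 1.42.0, 2-group fits, replicate and animal-number blocks, an Xist covariate, each form of wild type, and leaving out each library. The members and lists were chosen with earlier results of these data known. A listed gene is not reported here. Genes are named as all 10 members, the listed genes, and the 3 nearest profiles (mean log2 CPM of at least 2). Totals of 39.8 to 122 M put the floor of 3 counts at 0.0260 to 0.0737 CPM. Intervals, at 95%, are for the fitted differences and rest on the variation between these libraries, which the labels do not describe further.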

Additional observations from a re-analysis of the deposited data

How the results depend on the processing

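The counts of called genes stayed within 1.5 times their value in every alternative run, at 6 to 9 of 9 in homozygous KO against wild type, 0 in heterozygous KO against wild type and 6 to 8 in homozygous against heterozygous KO. Over all 10 genes and the alternatives, 211 of 220 values were counted as unchanged in homozygous KO against wild type. The counts were 191 of 220 in heterozygous KO against wild type and 191 of 200 in homozygous against heterozygous KO. Unchanged stands for the same direction and call, except that Itm2a has no call in the comparisons with homozygous KO. Itm2a gave 21 of the 211 values and, against heterozygous KO, 20 of the 191. Gata3 turned in homozygous KO against wild type, to 0.011 with the animal-number block, and ran from -0.0865 to 0.0071 when libraries were left out. Nr4a1 in homozygous against heterozygous KO was called with the replicate block (-1.10, adjusted p = 0.00467), the animal-number block (-1.10, adjusted p = 0.000386), pan-T scaling (-1.29, adjusted p = 0.0282), and without homozygous library 2 (-1.42), heterozygous library 1 (-1.36) or wild-type library 4 (-1.09). Runx3 there lost its call with pan-T scaling (0.27, adjusted p = 0.0602).

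Of the uncalled differences of heterozygous KO against wild type, those of Cd5 (-0.26 to -0.11), Egr2 (-0.56 to -0.14) and Gata3 (0.0084 to 0.11) kept their sign in all 22 alternatives, and the other 7 turned in at least 1. With the animal-number block Cd69 was -0.23, Nr4a1 -0.25, Cd6 -0.0225 and Zbtb7b 0.12. With the wild types of 1 wt word Cd69 was -0.20, Nr4a1 -0.16, Itm2a -0.10 and Cd6 -0.0344. Cd6 was also -0.0025 with totals alone, -0.0148 with pan-T and -0.0194 with CD3-chain scaling, and Itm2a was -0.0085 with the Xist covariate. With libraries left out in turn Cd69 ran from -0.10 to 0.27, Itm2a from -0.0326 to 0.15, Cd6 from -0.0226 to 0.0638, Nr4a1 from -0.0537 to 0.46, Tox from -0.035 to 0.059 and Runx3 from -0.0433 to 0.0884. The cause was not tested.

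With the replicate number as a block, Cd6 was -0.0089 and Runx3 -0.0401 in heterozygous KO, and the features called were 4934 against 5030 without it in homozygous KO against wild type. Same-numbered libraries correlated at -0.25 to 0.30 in their deviations, above 0.1 in 4 of 9 pairs. All 4 of those pairs also lay on the same side of the animal-number line, so the 2 labels cannot be told apart there. Libraries of different groups on the same side of the animal-number line correlated above 0.1 in 11 of 15 pairs, and those on different sides in 2 of 18. Over all features the called counts moved most with the wild types of 1 wt word (2670 against 5030), without heterozygous library 3 (2153 against 3342) and with DESeq2 in heterozygous KO (60 against 3). There the replicate block and CD3-chain scaling gave 5 each, and leaving out wild-type library 4 gave 6. Of called features 48.6% were higher in homozygous KO against wild type, 29.0% with totals alone and 11.4% with pan-T scaling. Against heterozygous KO the shares were 44.6%, 26.9% and 12.2%. Totals alone shifted the median feature by -0.11. In homozygous KO against wild type the 2 called of 10 CD4 lineage genes became 6 with pan-T scaling, 4 with totals alone or without wild-type library 4, and 1 with CD3-chain scaling, with 2 groups only or with the wild types of 1 wt word. The 3 of 12 CD8 lineage genes became 6 with pan-T scaling and 1 with those wild types. The 2 of 8 transducers became 4 with pan-T scaling or the animal-number block and 1 with those wild types, and the 4 of 14 relatives became 8 and 7 with pan-T scaling and the animal-number block.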
